A study of Mus musculus with 6 samples.

Results

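The genes described here encode the subunits of the mitochondrial respiratory chain and of ATP synthase. They were taken by symbol from the 32285 genes of the count matrices: the nuclear genes whose symbols start with Ndufa, Ndufb, Ndufc, Ndufs, Ndufv, Uqcr, Atp5 or Cox4 to Cox8, together with Sdha to Sdhd and Cyc1, and the protein-coding genes of the mitochondrial genome. Assembly factors (Ndufaf) and entries marked as pseudogenes were left out. This gave 99 genes, of which 86 are nuclear-encoded (38 of complex I, 4 of complex II, 9 of complex III, 18 of complex IV and 17 of complex V) and 13 are mitochondrially encoded (7 of complex I, 1 of complex III, 3 of complex IV and 2 of complex V). They held 2652689 of the 106888157 unique molecular identifiers (UMIs, each standing for a captured RNA molecule) in the nuclei kept, or 2.48%.

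Complexes I and II pass electrons from metabolism to ubiquinone, complex III passes them to cytochrome c and complex IV to oxygen. Complexes I, III and IV pump protons as they do so, and ATP synthase (complex V) uses the proton gradient to make ATP. Complex II is built from nuclear genes alone, while the others need subunits from both genomes. Photoreceptors are known for a high demand for ATP, and their mitochondria are packed into the inner segment, apart from the nucleus. Messenger RNA of the nuclear genes is made in the nucleus and exported, whereas mitochondrial transcripts never enter it, so in a preparation of nuclei they come from mitochondria or cytoplasm carried along.

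The libraries were made from single nuclei of the retina of wild-type C57BL/6J mice at 2 ages, 3 months and 18 months, with 3 libraries per age and no other treatment or allele named in the labels. The labels do not say whether libraries of an age came from separate animals, so the p-values measure the spread between these libraries, which may be technical. The totals ran from 15905689 to 29340705 UMIs per library and the median from 1016 to 2218.5 UMIs per barcode. Of 62893 barcodes, 49706 nuclei were kept, from 32 clusters of which 24 could be named from marker genes; a class is called here by the cell type whose markers it carries. The 8 classes compared were rods, cones, rod bipolar cells, cone bipolar cells, amacrine cells, horizontal cells, ganglion cells and Müller glia. The other clusters were small non-neuronal classes or stayed unnamed (20291 nuclei). Among the unnamed, a cluster of 6388 nuclei carried 11 of 12 rod markers and another of 2902 nuclei 9 of 12, before the mitochondrial limit. Both also carried markers of an unrelated class, and 3118 and 1774 of their nuclei were from 18-month replicate 2. The rod class leaves them out.

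The libraries differed in ways that touch every value below. Barcodes with more than 5% mitochondrial UMIs, which were left out, made up 41.9%, 23.8% and 9.36% of all barcodes in replicates 1 to 3 at 3 months, and 9.16%, 2.11% and 1.12% in replicates 1 to 3 at 18 months. Replicate 1 of both ages was processed with Cell Ranger 7.1.0 and the other libraries with 7.2.0. Of the kept nuclei of 18-month replicate 3, 83.3% stayed unnamed, against 15.7% to 38.5% in the other libraries. Rod nuclei numbered 419, 2452 and 1598 at 3 months and 1064, 4436 and 110 at 18 months. They came from 3 clusters that different libraries filled: before the mitochondrial limit, 4296 of 6690 nuclei of one were from 18-month replicate 2, 2452 of 3409 of another from 3-month replicate 2, and 1139 and 1273 of 2558 of the last from the replicates 1. No pair of libraries shared more than 0.506% of the smaller one's barcodes.

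Upstream sequences are shown for 4 members, chosen to set genes whose window holds the motifs searched beside one without them: Atp5h (subunit d of ATP synthase), Cox6a1 and Cox6b1 (the widespread forms of 2 complex IV subunits), and Cox6b2, the second form of the Cox6b1 subunit, on which a Müller glia result below turns. Of the 86 nuclear genes, 68 matched the RefSeq table of upstream sequence (GRCm38.p6). The sequences are the 250 bases before the RefSeq transcription start, 5′ to 3′ on the gene's own strand. All 4 genes lie on the minus strand, with windows at chr11:115419920-115420169 (Atp5h), chr5:115348959-115349208 (Cox6a1), chr7:30626115-30626364 (Cox6b1) and chr7:4753095-4753344 (Cox6b2). Capitals mark matches to the motif of nuclear respiratory factor 1 (NRF1), GCGCA followed by any base and GCGC. They also mark CCGGAAG, an ETS motif bound by GABP, and both motifs were read on both strands. The GENCODE annotation starts Atp5h, Cox6a1 and Cox6b1 inside these windows, at 115419962, 115348981 and 30626151. The ETS matches of these genes lie past those starts, within the annotated gene. The window of Cox6b2 lies wholly before its GENCODE start.
Atp5h: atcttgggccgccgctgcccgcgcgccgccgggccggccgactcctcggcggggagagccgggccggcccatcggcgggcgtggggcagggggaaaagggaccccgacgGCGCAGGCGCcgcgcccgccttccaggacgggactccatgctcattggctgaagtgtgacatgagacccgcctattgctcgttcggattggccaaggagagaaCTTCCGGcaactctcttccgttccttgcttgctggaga
Cox6a1: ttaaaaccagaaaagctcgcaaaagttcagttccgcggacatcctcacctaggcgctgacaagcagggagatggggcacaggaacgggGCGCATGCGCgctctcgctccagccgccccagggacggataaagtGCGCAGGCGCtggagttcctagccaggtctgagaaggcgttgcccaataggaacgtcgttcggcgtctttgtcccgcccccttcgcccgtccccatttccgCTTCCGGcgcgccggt
Cox6b1: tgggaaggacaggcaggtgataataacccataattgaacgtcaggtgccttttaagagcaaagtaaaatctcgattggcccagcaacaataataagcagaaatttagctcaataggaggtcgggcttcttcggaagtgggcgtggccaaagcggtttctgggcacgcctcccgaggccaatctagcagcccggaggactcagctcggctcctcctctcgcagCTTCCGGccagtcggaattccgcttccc
Cox6b2: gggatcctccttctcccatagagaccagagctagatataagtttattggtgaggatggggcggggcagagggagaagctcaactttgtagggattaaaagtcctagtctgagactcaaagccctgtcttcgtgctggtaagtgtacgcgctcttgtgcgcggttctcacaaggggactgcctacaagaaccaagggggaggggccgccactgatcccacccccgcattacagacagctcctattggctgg

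Both factors are known regulators of respiratory chain genes. The NRF1 motif was found in 13 of the 68 windows (19.1%) and in 4.23% of those of all 27025 genes in the table, and the ETS motif in 12 (17.6%) against 7.83%. The YY1 motif AAGATGGC, read on both strands, was found in 1 window (1.47%) against 1.83% of all genes. At least 1 of the 3 was present in 22 windows (32.4%), against 12.8% of all genes. In Cox6a1 the NRF1 motif began 162 and 117 bases before the start and the ETS motif 16 bases before it. In Atp5h the distances were 141 bases for NRF1 and 38 for ETS. The window of Cox6b2 held none of the 3 motifs. A match is a stretch of letters, not a measured site.

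Rods gave the largest part of their UMIs to the nuclear-encoded subunits. In replicates 1, 2 and 3, the 86 genes together took 1.09%, 3.78% and 3.36% of rod UMIs at 3 months and 0.748%, 2.16% and 1.64% at 18 months. Ganglion cells, the output neurons of the retina, lay lowest on average, with 0.486%, 0.893% and 0.908% at 3 months and 0.387%, 0.594% and 0.855% at 18 months. Rods ranked first in all 6 libraries and ganglion cells last in 4 of 6. Averaged over the 6 libraries, the percentage was 2.13 ± 1.22 (SD) in rods, 1.43 ± 0.651 in cones, between 0.810 (horizontal cells) and 1.12 (cone bipolar cells) in the 5 classes between, and 0.687 ± 0.228 in ganglion cells. Replicate 1 was the lowest library of its age in every class, which widens the SDs.

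The mitochondrially encoded genes followed another order among libraries. They took 3.19%, 2.91% and 1.92% of rod UMIs at 3 months and 1.86%, 1.51% and 2.01% at 18 months. Rods ranked first in 5 of 6 libraries, with a mean of 2.23 ± 0.661%, followed by cones at 1.86 ± 0.839%, and the other classes had means between 1.11% (horizontal cells) and 1.44% (Müller glia). The replicates 1, lowest for the nuclear genes, were highest or second highest within their age for the mitochondrial genes, as the plot of percentages by class shows. The ratio of mitochondrial to nuclear members in rods was accordingly 2.93 and 2.49 in the replicates 1 and between 0.572 and 1.22 in the other libraries. These levels are bounded by the 5% limit: the rod mean was 2.67% at 3 months and 1.79% at 18 months with it, and 4.73% and 2.18% without it.

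**Figure D1:**
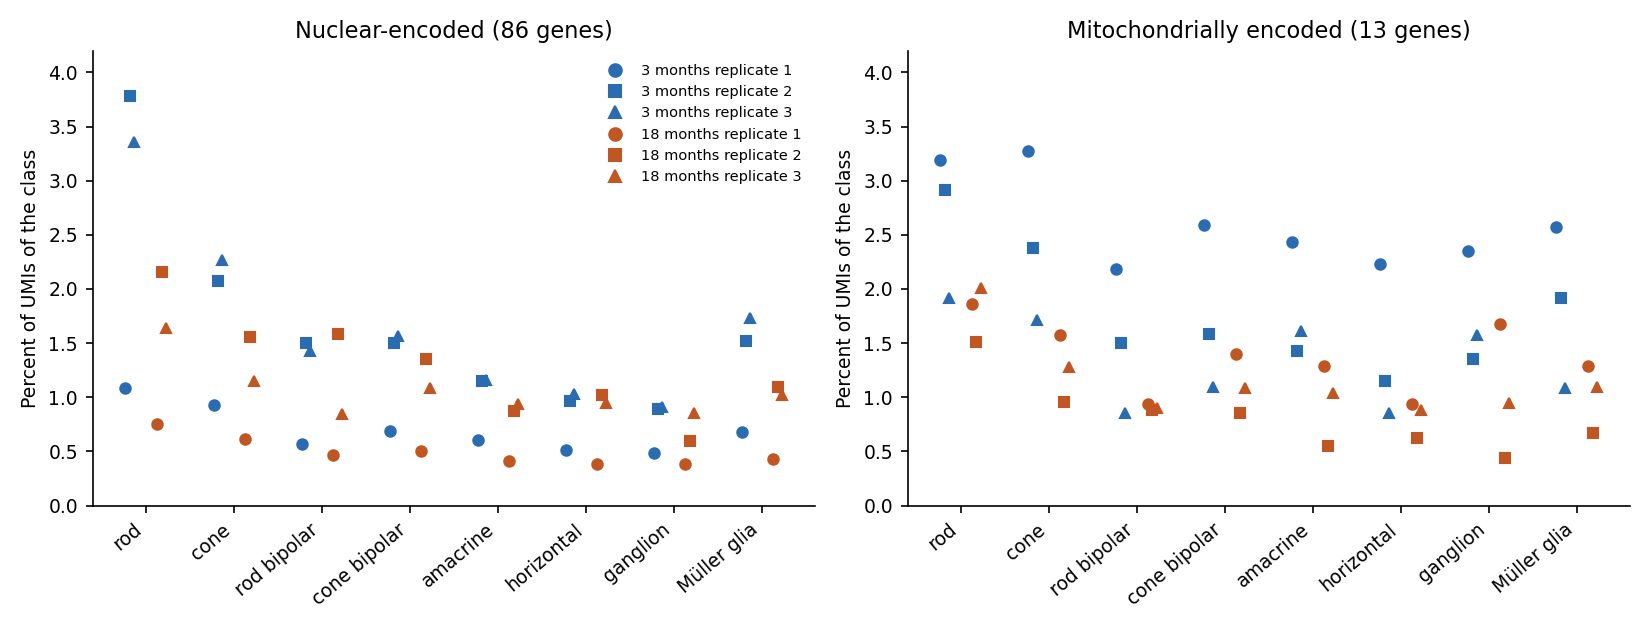
Percent of a class's UMIs that came from the 86 nuclear-encoded (left) and the 13 mitochondrially encoded (right) respiratory chain genes, with a point per library (blue, 3 months; orange, 18 months; circle, square and triangle for replicates 1, 2 and 3). Rods reach 3.78% on the left, and the circles of both ages are the lowest points of their age in each class on the left.

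Counted per nucleus instead of per UMI, the nuclear-encoded genes gave closer means across classes. A rod nucleus held 11.6, 40.5 and 34.4 UMIs of them at 3 months and 9.60, 18.0 and 15.9 at 18 months. A ganglion cell nucleus held 16.5, 31.9 and 32.1 at 3 months and 17.5, 26.5 and 13.7 at 18 months. The means over libraries lay between 17.6 (Müller glia) and 23.0 (ganglion cells), with 21.7 ± 12.7 in rods. Within a library the classes differed more: in 18-month replicate 2 a rod bipolar nucleus held 34.1 and a rod nucleus 18.0, and ganglion cells lay above Müller glia in each of the 6 libraries.

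The totals behind those counts were not level: the mean over libraries was 1041 ± 147 UMIs per rod nucleus, 1343 ± 125 per cone nucleus and 3514 ± 1057 per ganglion cell nucleus. A class's percentage therefore follows both its count of respiratory chain UMIs and its count of all other UMIs. Mitochondrially encoded UMIs numbered 34.0, 31.2 and 19.7 per rod nucleus at 3 months and 23.9, 12.6 and 19.5 at 18 months, and 49.1 ± 27.3 per ganglion cell nucleus over all libraries. Transcripts of 12 rod marker genes were counted in every class, at 36.4 ± 17.9 UMIs per rod nucleus and at means of 14.5 to 20.2 per nucleus in the other 7. Rod transcripts were thus counted in nuclei of every class, and their part in the respiratory chain counts of classes other than rods was not tested.

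**Figure D2:**
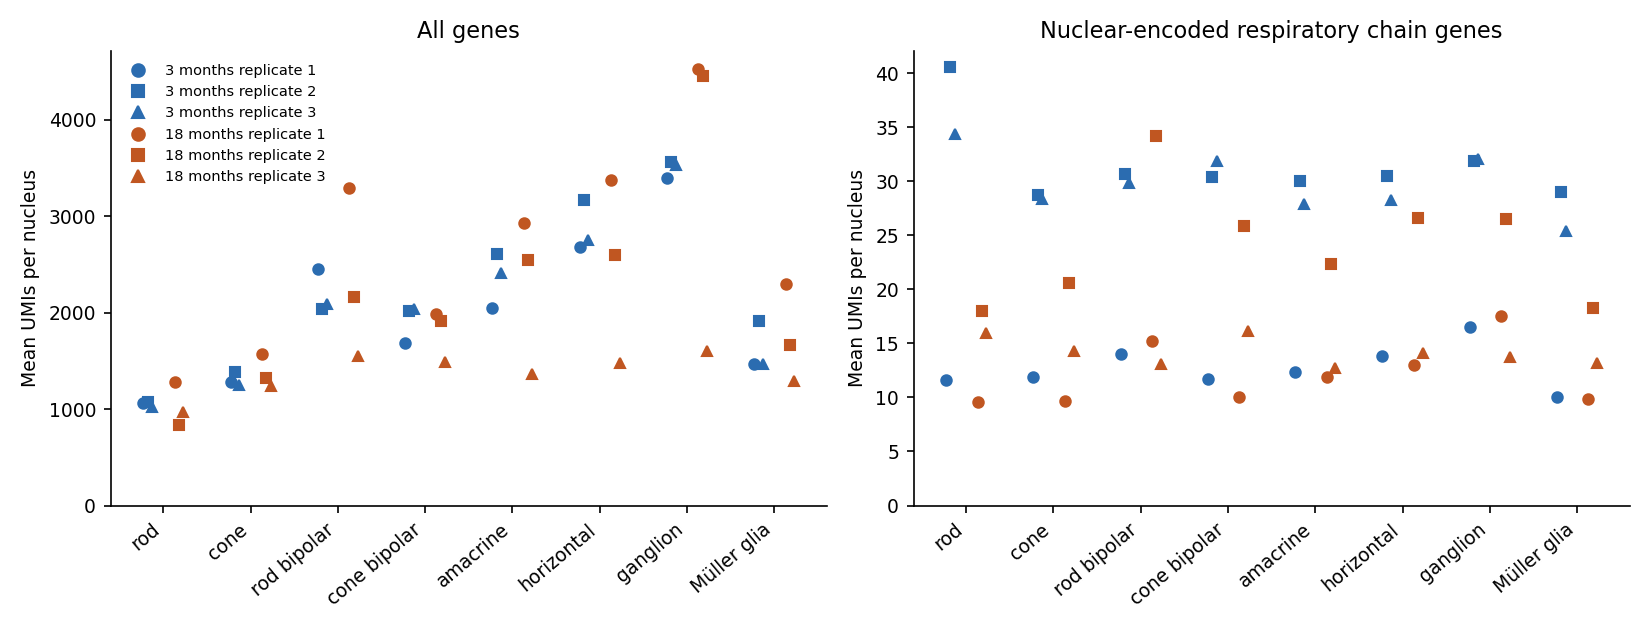
Mean UMIs per nucleus of all genes (left) and of the 86 nuclear-encoded respiratory chain genes (right) in each class, with a point per library (colours and symbols as in the plot of percentages). In the left panel the class means range from 1041 (rods) to 3514 (ganglion cells), while the right panel stays between means of 17.6 and 23.0.

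Cytosolic ribosomal protein genes, short and highly expressed like most members, were measured beside them. They took 3.75 ± 2.30% of rod UMIs and 0.983 ± 0.340% of ganglion cell UMIs, and were also lowest in replicate 1 of each age in rods (1.84% and 1.18%). The ratio of nuclear-encoded members to ribosomal proteins was steady among libraries, at 0.529 to 0.637 in rods and 0.658 to 0.796 in ganglion cells. Libraries high in the one set were thus high in the other. Of the 8 classes, the mean ratio was lowest in rods (0.583 ± 0.0375) and highest in ganglion cells (0.707 ± 0.0572). The percentage of UMIs from nuclear-encoded members had the opposite order in these classes.

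Rods were then compared with the mean of the other 7 classes, within libraries, by edgeR's quasi-likelihood test over 10320 genes with Benjamini-Hochberg adjustment. A gene is called at an adjusted p of 0.05 or less. Of the 93 members that could be tested, 89 were called higher in rods and none lower, while 38.0% of all genes tested were called higher and 33.8% lower. The median log2 difference was 1.10 over 80 nuclear-encoded and 0.75 over 13 mitochondrially encoded members, against 0.04 over all genes. Differences on this scale are relative to the UMIs of the class. The 82 ribosomal protein genes tested were all called higher too, with a median of 1.27, and 5 of 7 nuclear-retained RNAs such as Malat1 and Meg3 were called lower, with a median of -2.12. How far total UMIs per nucleus enter these differences was not tested.

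In complex I, which takes electrons from NADH, 35 of 37 nuclear-encoded members tested were called higher in rods (median 1.12). Ndufb6, an accessory subunit of the membrane arm, stood at 42.5, 174 and 162 CPM (the gene's UMIs per 1000000 UMIs of the class and library) in rods at 3 months and at 25.7, 98.8 and 131 CPM at 18 months. In ganglion cells it stood at 15.9, 34.8 and 38.3 CPM at 3 months and 14.3, 24.0 and 38.1 CPM at 18 months. The rod value exceeded the ganglion value in every library, and the log2 difference of rods from the other classes was 1.40 ± 0.15 (SE; edgeR adjusted p = 9.72e-12). Ndufb11, another accessory subunit, had a difference of 1.35 ± 0.12, and Ndufs8, an iron-sulfur subunit, 1.36 ± 0.15.

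Ndufa4, a small subunit first assigned to complex I and now placed with complex IV, had the highest CPM of the nuclear-encoded members, at 596, 2997 and 2463 CPM in rods at 3 months and 347, 1363 and 974 CPM at 18 months. Ndufb9, an accessory subunit, averaged 372 ± 216 CPM in rods and 122 ± 44.2 CPM in ganglion cells. The 2 complex I members not called were Ndufs1, the largest core subunit, with a log2 difference of -0.07 ± 0.10, and Ndufs4, an accessory subunit whose loss causes Leigh syndrome, with 0.11 ± 0.09. Ndufs4 stood at 119, 179 and 173 CPM in rods at 3 months and 136, 186 and 131 CPM at 18 months, against 98.8, 144 and 138 CPM and 110, 124 and 146 CPM in ganglion cells. Ndufs1 and Ndufs4 had their highest mean CPM in cones.

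All 4 subunits of complex II, which is also the succinate dehydrogenase of the citric acid cycle, were called higher in rods (median 0.81). Sdha, the flavoprotein, had the smallest difference of them, 0.56 ± 0.09 (edgeR adjusted p = 8.7e-07), with 190.3 ± 28.0 CPM in rods and 101.1 ± 13.8 CPM in ganglion cells. Its rod values of 224, 206 and 186 CPM at 3 months and 191, 195 and 141 CPM at 18 months did not share the low level of the replicates 1 that other members showed. Sdhb, the iron-sulfur subunit, stood at 85.7 ± 32.8 CPM in rods and 35.4 ± 7.15 CPM in ganglion cells, and Sdhc, a membrane anchor, at 65.2 ± 27.4 CPM and 33.4 ± 7.34 CPM.

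All 9 nuclear-encoded subunits of complex III were called higher in rods (median 1.19). Uqcrh, the hinge protein, averaged 468 ± 305 CPM in rods and 130 ± 47.2 CPM in ganglion cells. Uqcrb, a small subunit near the ubiquinone site, averaged 399 ± 217 CPM and 113 ± 42.6 CPM, and Uqcrq, another small subunit, 328 ± 233 CPM and 84.8 ± 44.2 CPM. Cyc1, the cytochrome that hands electrons to cytochrome c, had a log2 difference of 1.02 ± 0.13.

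In complex IV, 11 of 13 nuclear-encoded members tested were called higher (median 1.01), the exceptions being the alternative isoforms Cox4i2 (0.41 ± 0.22) and Cox6b2 (0.15 ± 0.26). Cox4i1, the common form of the largest nuclear-encoded subunit, averaged 791 ± 466 CPM in rods and 258 ± 94.9 CPM in ganglion cells. Cox6c averaged 818 ± 465 CPM and 248 ± 95.5 CPM, and Cox8a 593 ± 330 CPM and 202 ± 94.3 CPM. All 17 members of complex V were called higher (median 1.11). Atp5b, the catalytic beta subunit, averaged 542 ± 265 CPM in rods and 177 ± 25.1 CPM in ganglion cells, Atp5l, a membrane subunit, 415 ± 273 CPM and 129 ± 46.9 CPM, and Atp5h 418 ± 294 CPM and 120 ± 51.1 CPM. Atp5e, the epsilon subunit of the central stalk, had the largest difference of the complex, 1.35 ± 0.12.

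Rods held the highest mean CPM of the 8 classes for 77 of the 86 nuclear-encoded members and for 13 of the 13 mitochondrially encoded ones. They were highest in each of the 6 libraries for 34 nuclear-encoded members and for 3 mitochondrial ones, mt-Nd2, mt-Nd3 and mt-Atp8. The 6 members that could not be tested were scarce isoforms: Ndufa4l2 (100 UMIs in all kept nuclei), Cox6a2 (52), Cox7a1 (441), Cox7b2 (357), Cox8b (67) and Cox8c (0, which allows up to 0.0281 CPM by counting error alone).

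All 13 mitochondrially encoded genes were called higher in rods relative to the UMIs of the class. Their log2 differences lay within a narrow range from 0.68 (mt-Nd1) to 0.88. Counted per nucleus, the summed UMIs of these genes had their lowest mean in rods (above). Their shares of the mitochondrial UMIs were almost the same in each class: mt-Co3, a core subunit of complex IV, made up 19.5% to 20.8% of them as class means, mt-Atp6, the proton channel of ATP synthase, 19.7% to 20.3%, mt-Co2 13.1% to 14.0%, mt-Co1 10.1% to 11.1% and mt-Cytb, the core of complex III, 10.9% to 11.9%. The complex I genes mt-Nd1, mt-Nd2 and mt-Nd4 made up 4.79% to 6.49%, 5.76% to 6.40% and 5.91% to 6.92%. The others, mt-Nd3, mt-Nd4l, mt-Nd5, mt-Nd6 and mt-Atp8, made up 0.310% to 2.99% each. These class means pool libraries of unlike makeup. In rods mt-Atp6 made up 27.2% and 26.3% in the replicates 1 and 15.4% to 17.8% in the other libraries, mt-Nd3 5.48% and 4.76% against 1.35% to 1.96%, and mt-Cytb 7.30% and 7.21% against 12.6% to 14.8%. The replicates 1 also stood apart in these 3 genes in the same direction in the other 7 classes, and they are the libraries of Cell Ranger release 7.1.0, whose part was not tested. The widest relative range of class means among the larger shares was that of mt-Nd1, from 4.79% in cones to 6.49% in ganglion cells, where it was the only member called higher (log2 0.37 ± 0.15, edgeR adjusted p = 0.0254).

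**Figure D3:**
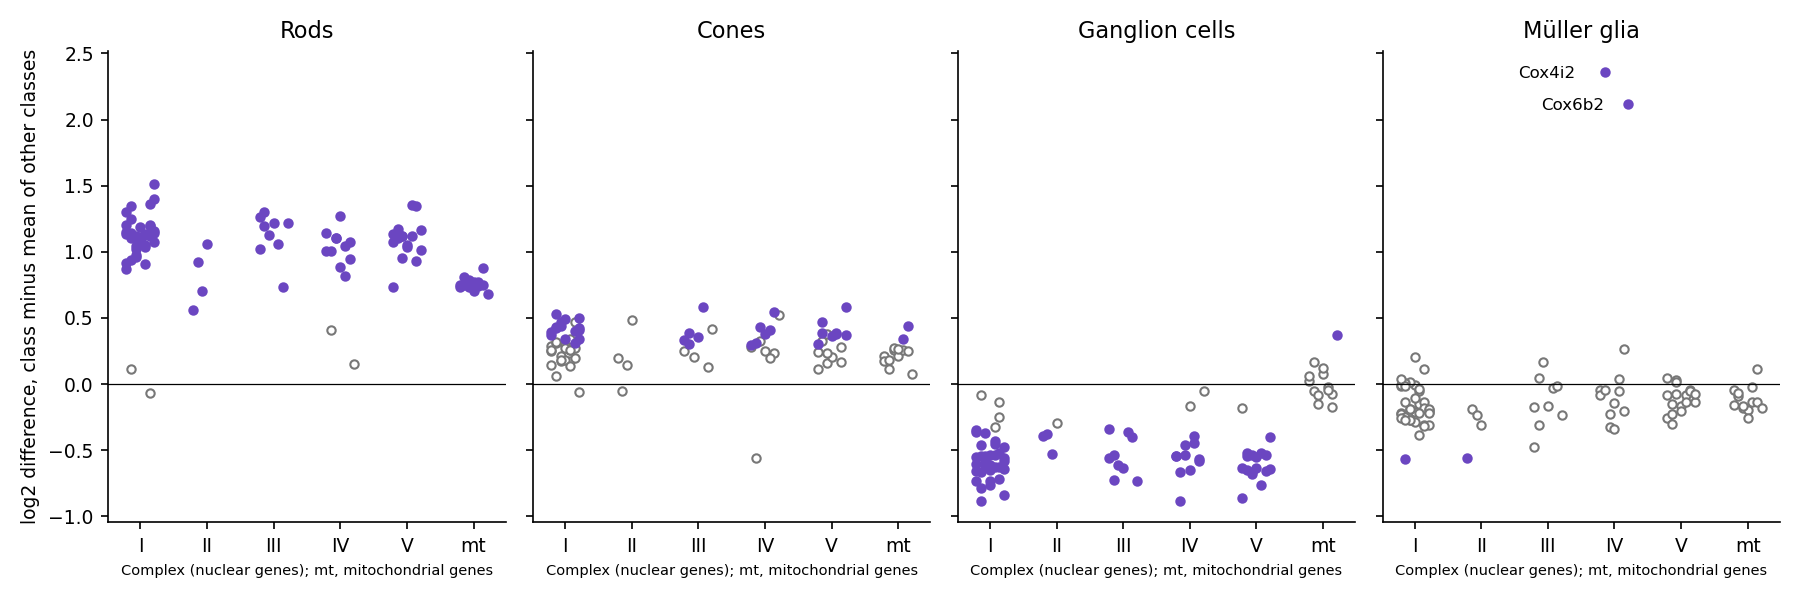
The log2 difference of each tested member between a class and the mean of the other 7 classes, by complex for nuclear-encoded genes and together for the 13 mitochondrially encoded genes (mt), in rods, cones, ganglion cells and Müller glia. Filled points are called at an adjusted p of 0.05 (edgeR) and open points are not; in rods 89 of 93 are filled and above 0, and in Müller glia Cox4i2 and Cox6b2 stand apart at 2.36 and 2.12.

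Cones, the other photoreceptors, followed with smaller differences. In that class 36 members were called higher and none lower, against 22.8% of all genes called higher and 26.1% lower, with medians of 0.31 for the nuclear-encoded and 0.25 for the mitochondrially encoded members. Uqcrc1, a core protein of complex III, had the largest difference (0.59 ± 0.18, edgeR adjusted p = 0.00471). Atp5g1, a c-ring subunit of ATP synthase, had 0.58 ± 0.13 and Cox8a 0.55 ± 0.12. The count for cones was not steady: it was 16 without 3-month replicate 1, 14 with no filter on low counts and 79 with library size in place of TMM scaling, and with only the 18-month libraries (chosen after seeing the data) it was 6. Under the same changes the count for rods stayed between 87 and 92, with 1 member called lower when no filter was used.

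The inner neurons lay on the other side of the mean or near it. In ganglion cells 72 members were called lower, with 31.5% of all genes called lower, and mt-Nd1 was called higher, with 33.4% of all genes called higher. The median there was -0.55 for the nuclear-encoded and -0.02 for the mitochondrially encoded members. The 72 were 41 with only the 18-month libraries, and mt-Nd1 was not called without TMM scaling, with no mitochondrial limit, without 3-month replicate 3 or without 18-month replicate 1. In amacrine cells 60 members were called lower and none higher (24.0% of all genes were called lower and 25.5% higher), all of them nuclear-encoded. The amacrine count was 33 without 3-month replicate 3, 32 without 18-month replicate 2, 30 with no filter on low counts and 13 with only the 18-month libraries. In horizontal cells 8 were called lower (16.7% of all genes): Ndufb3, Ndufb10, Ndufs3, Uqcrh, Uqcrq, Atp5k, Atp5g1 and mt-Nd3. The horizontal cell count was 71 without TMM scaling, of which 58 were nuclear-encoded and 13 mitochondrial, 19 with no mitochondrial limit, 5 without 18-month replicate 1, and 3 and 2 without 3-month replicates 2 and 3. In rod bipolar cells no member was called by edgeR, with 12 at an unadjusted p under 0.05 and 3 called lower by DESeq2. Without 18-month replicate 2 edgeR called 2 lower there, and without 18-month replicate 3 it called 1 higher. In cone bipolar cells none was called by edgeR or DESeq2, with 0 at an unadjusted p under 0.05 in both. Of all genes, 10.9% were called higher and 4.76% lower in rod bipolar cells, and 10.8% and 4.94% in cone bipolar cells. For the alternatives of these classes, and those of cones and rods above, the share of all genes called is not set beside the counts. Such counts show how far a result moved, not whether members stood out from all genes.

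Müller glia, the radial glia that support retinal neurons, differed in the choice of complex IV isoform. There 2 members were called higher, Cox4i2 and Cox6b2 (15.7% of all genes were called higher), and 2 lower, Ndufa10, a complex I subunit, and Sdha, both at -0.56 (11.5% of all genes). Cox4i2, an isoform of subunit 4 known from lung and from responses to low oxygen, stood at 49.5, 10.3 and 112 CPM at 3 months and 35.0, 116 and 56.4 CPM at 18 months in Müller glia. In the other 7 classes its mean lay between 7.28 CPM (horizontal cells) and 19.8 CPM (rods). The log2 difference was 2.36 ± 0.25 (edgeR adjusted p = 3.54e-11). The gene lies at chr2:152754173-152765037 on the plus strand (mm10) and overlaps no other annotated gene.

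As a share of Cox4i1 and Cox4i2 UMIs together, Cox4i2 made up 13.6%, 1.69% and 14.5% in Müller glia at 3 months and 18.8%, 20.3% and 14.8% at 18 months, or 119 of 749 UMIs over all libraries. The low value was that of 3-month replicate 2, which had 51 Müller nuclei. The mean share was 14.0 ± 6.56% in Müller glia and between 2.03% and 3.97% in the other 7 classes. Cox4i1 itself did not pass the test in Müller glia (-0.05 ± 0.14), so the higher share came with a higher Cox4i2 level and no called difference in Cox4i1.

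Cox6b2, the isoform of subunit 6B best known from testis, stood at 36.3, 30.8 and 37.2 CPM at 3 months and 29.2, 41.1 and 14.1 CPM at 18 months in Müller glia, and at means of 3.14 CPM (rod bipolar cells) to 16.8 CPM (cones) elsewhere. Its log2 difference was 2.12 ± 0.33 (edgeR adjusted p = 4.65e-07). It made up 61 of 309 Cox6b1 and Cox6b2 UMIs in Müller glia, with a mean share of 18.4 ± 11.1%, followed by cone bipolar cells at 11.3 ± 12.03% (17 of 287 UMIs) and ganglion cells at 9.85 ± 3.45%. Cox6b1, the common form, was not called in Müller glia (0.27 ± 0.16). Cox6b2 lies at chr7:4751792-4753094 on the minus strand, and its upstream window, printed above, differs from that of Cox6b1 in holding no ETS match. The Cox6b1 match lies past the start that GENCODE gives that gene, so the windows are not placed alike.

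Other cell types in the Müller glia class were checked with marker lists. All 14 Müller markers were detected, at a summed 4953 to 11343 CPM per library. Endothelial markers summed to 930 to 1716 CPM there, against means of 43.8 to 84.4 CPM in the other 7 classes and 6394 CPM in the small endothelial class. Nearly all of that sum was Flt1, the leading gene of the Müller cluster (1061 ± 198 CPM), and Kdr (289 ± 116 CPM), while Cldn5, a defining endothelial marker, stood at 0.275 CPM and Tie1 at 0.

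Pericytes and smooth muscle, the mural cells of vessels, are another place where Cox4i2 is known to be expressed. Mural markers summed to 190 to 524 CPM in the Müller class, mostly Vtn (215 CPM, also abundant in rods) and Pdgfrb (102 CPM). Kcnj8 and Acta2 were at 0 and Rgs5 at 2.08 CPM, against 115, 154 and 400 CPM in the small mural class. Cox4i2 in that class averaged 41.3 ± 39.0 CPM, below its mean in Müller glia. The part of such cells in the Cox4i2 value was not tested. Id1, the nearest gene upstream of Cox4i2 at a distance of 16762 bases, averaged 16.3 CPM in Müller glia, 75.0 CPM in the mural class and at most 3.46 CPM in the other 7 classes.

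Other isoforms followed other classes. Cox7b2, the second form of subunit 7B, was found almost only in inner neurons: 81 of 1775 Cox7b and Cox7b2 UMIs were its own in amacrine cells (mean share 5.11 ± 3.13%) and 113 of 4053 in ganglion cells (3.86 ± 2.23%), against 2 of 3669 in rods and 1 of 209 in Müller glia. Ndufa4l2, a paralog of Ndufa4 known to respond to low oxygen, made up 32 of 315 UMIs of the pair in mural nuclei and 8 of 17784 in rods. Its mural level was 65.9 ± 62.9 CPM, from 0 in 3-month replicate 1 to 172 CPM in 18-month replicate 2. Cox7a1, Cox6a2 and Cox8b, forms known from muscle, made up 87 of 4428, 10 of 2712 and 12 of 6933 UMIs of their pairs or sets in rods. The 3 genes for the c-ring subunit of ATP synthase were near even in rods, at 33.3 ± 4.96% for Atp5g1, 29.5 ± 5.76% for Atp5g2 and 37.2 ± 7.44% for Atp5g3. They encode the same mature protein from different transcripts.

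**Figure D4:**
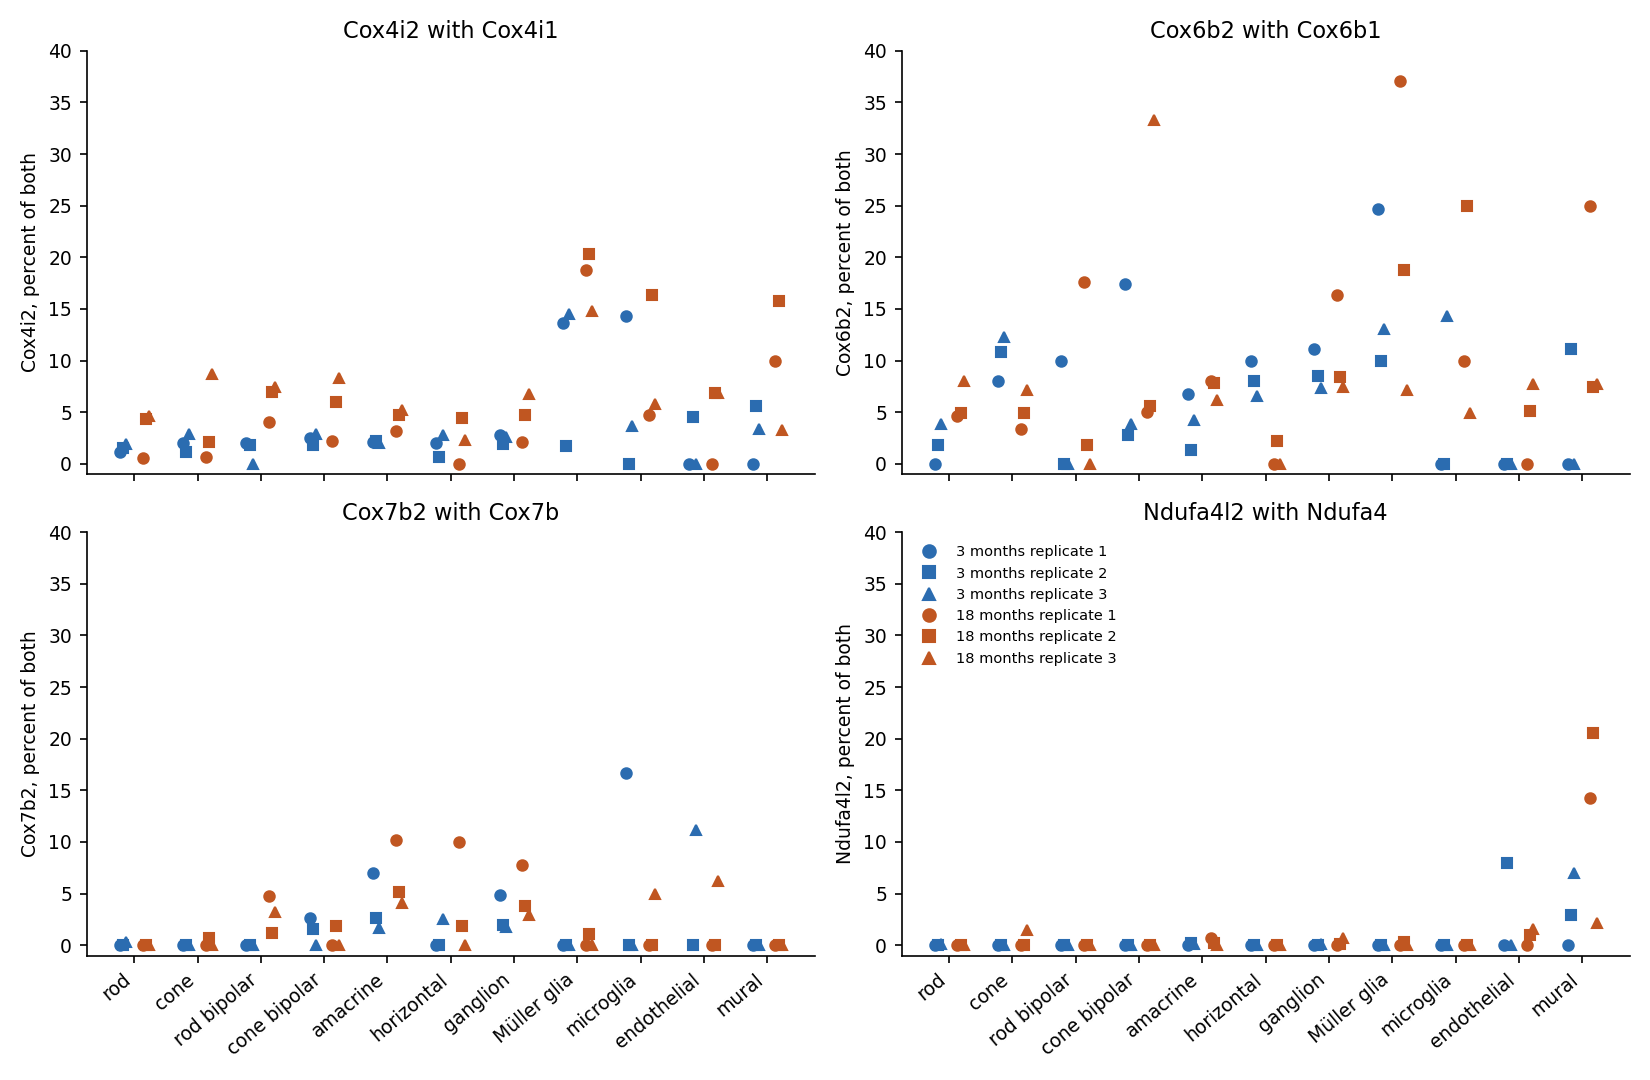
Share of the scarcer isoform in the UMIs of each pair, by class and library (colours and symbols as in the plot of percentages), for Cox4i2, Cox6b2, Cox7b2 and Ndufa4l2. Cox4i2 averages 14.0% in Müller glia and at most 3.97% in the other 7 large classes, and Ndufa4l2 reaches 20.6% in mural nuclei of 18-month replicate 2. The microglia, endothelial and mural points rest on few UMIs.

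Longer nuclear-encoded members tended to differ less in rods. Across 80 genes, the log2 difference of rods from the other classes had a Spearman correlation of -0.397 with gene length, as a description, since genes are not independent replicates and the short ones share high counts. Of the 80, only 3 are 30000 bases or longer: Ndufs4 (100464 bases), Ndufa10 (34851) and Ndufs1 (33238). Ndufs4 and Ndufs1 were not called (above), while Ndufa10 was called higher in rods (0.94 ± 0.10) and was highest there in each of the 6 libraries, at 201 ± 87.0 CPM against 77.5 ± 21.2 CPM in ganglion cells. The 77 shorter genes had a median of 1.11. Members with and without any of the 3 upstream motifs had like medians, 1.12 (22 genes) and 1.11 (43 genes). Of the 86 nuclear-encoded members, 27 overlap an annotated gene on the other strand and 1, Ndufa13, a gene on the same strand.

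Other genes of mitochondrial respiration, from lists outside the membership rule, were tested in the same fit. Of 46 assembly factors 35 could be tested, and 22 were called higher and 5 lower in rods (median 0.44). Of all genes in that fit, 38.0% were called higher and 33.8% lower in rods. Those higher included Uqcc3, which helps build complex III (1.75 ± 0.11), Sdhaf4 for complex II (1.44 ± 0.13) and Ndufaf2 for complex I (1.40 ± 0.13). Those lower were Atpaf1 for ATP synthase (-0.80 ± 0.16), Ndufaf7 (-0.62 ± 0.13) and Timmdc1 (-0.34 ± 0.12) for complex I, Ttc19 for complex III (-0.30 ± 0.12) and Cox16 for complex IV (-0.29 ± 0.11).

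Of 16 genes of mitochondrial transcription and biogenesis 11 could be tested, and 7 were called higher in rods and none lower. The shares of all genes were 38.0% higher and 33.8% lower, here and for the carriers below. Ppargc1a, a coactivator of mitochondrial biogenesis, had a difference of 1.16 ± 0.12, and Slirp and Lrpprc, which stabilise mitochondrial messenger RNA, 0.85 ± 0.13 and 0.82 ± 0.12. Tfam, the packaging and transcription factor of mitochondrial DNA, had 0.41 ± 0.18. Nrf1, whose motif was searched above, was not called (-0.01 ± 0.12), and Gabpa had 0.45 ± 0.15. Of 13 carriers and electron carriers 11 could be tested and 8 were called higher, among them Slc25a5, an ADP/ATP carrier (1.56 ± 0.13), Cycs, cytochrome c (1.19 ± 0.16), and Vdac2, an outer membrane channel (1.12 ± 0.13). The adjusted p of each gene named here as higher or lower was at most 0.040 by edgeR.

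Between ages, no member was called in any of the 8 classes by edgeR with age alone in the model. The members at an unadjusted p under 0.05 were 13 of 94 in rods, 14 of 91 in cones, 4 of 85 in rod bipolar cells, 6 of 90 in cone bipolar cells, 10 of 94 in amacrine cells, 8 of 86 in horizontal cells, 8 of 95 in ganglion cells and 16 of 89 in Müller glia. Over all genes tested, 6.99%, 2.03%, 0.82%, 1.45%, 2.49%, 5.17%, 1.83% and 3.98% were at that level, and 0.0% were called except in horizontal cells (0.0585%). DESeq2 called no member in any class either. It put 37 members of rods at an unadjusted p under 0.05, a count without the share of all genes beside it.

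The values themselves were lower at 18 months in most members, beyond the centre of all genes. In rods all 81 nuclear-encoded members tested were lower on average, with a median log2 difference of -1.18, as were all 13 mitochondrially encoded ones (-0.91), against -0.04 over all genes. The ages filled the rod clusters unequally: before the mitochondrial limit, 1 of the 3 rod clusters held 43, 2452 and 774 nuclei of the 3-month libraries and 1, 138 and 1 of the 18-month libraries. The part of this in the rod values was not tested. Without TMM scaling the median of all genes moved to 0.23 and that of the nuclear-encoded members to -0.84. In cones the medians were -0.67 (78 of 78 lower) and -1.02, and in Müller glia -0.51 (68 of 76 lower) and -0.98. In the other 5 classes the nuclear-encoded medians lay between -0.16 and -0.37 and the mitochondrial ones between -0.68 and -0.91.

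**Figure D5:**
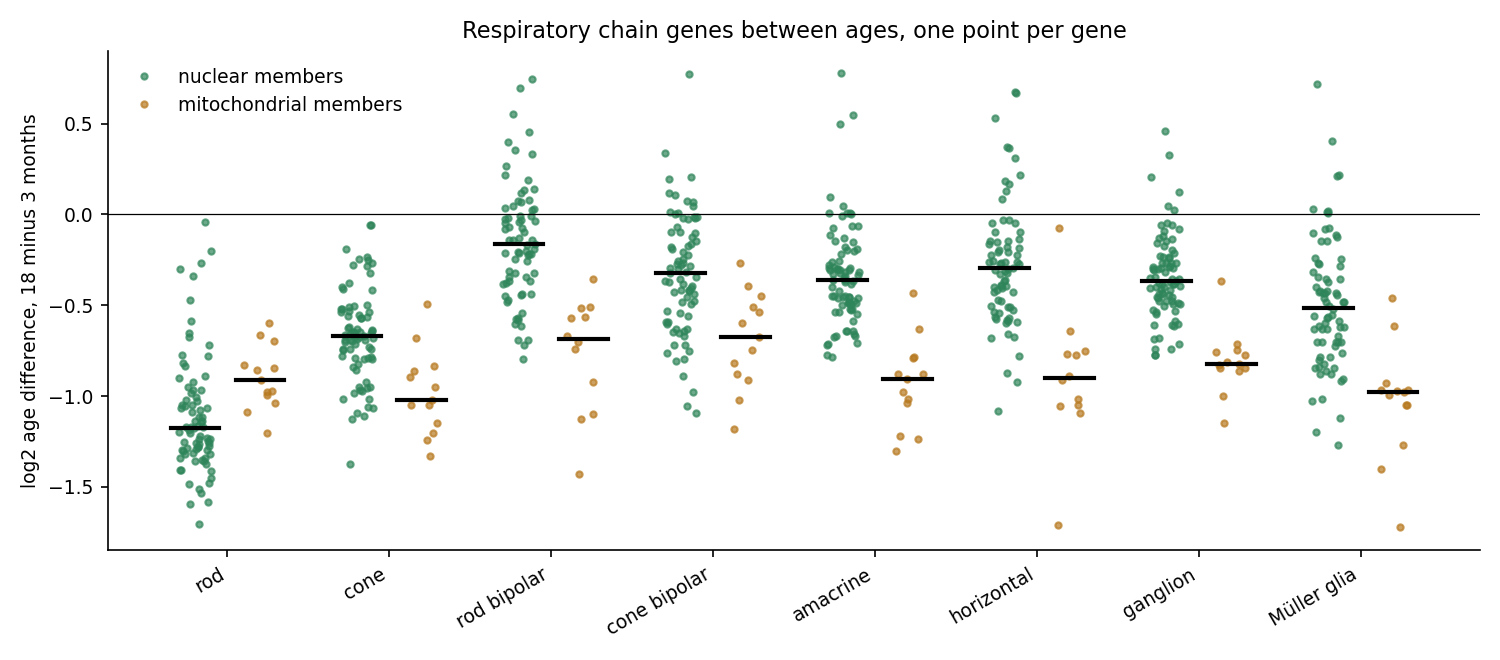
The log2 difference between ages (18 minus 3 months) of each tested member by class, nuclear-encoded in green and mitochondrially encoded in ochre, with the median as a bar. The green medians run from -1.18 in rods to -0.16 in rod bipolar cells, while the ochre medians stay between -0.68 and -1.02. No point passes the test with age alone in the model.

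Within rods the medians were -1.17 for complex I, -1.07 for complex III, -1.21 for complex IV and -1.28 for complex V. Complex II had a smaller median, -0.73, with its 4 members between -0.89 and -0.47, and the difference between complexes was not tested. Cox5b, a subunit of complex IV, had the largest difference. It stood at 76.1, 703 and 584 CPM at 3 months and 44.7, 320 and 169 CPM at 18 months, a log2 difference of -1.71 ± 0.92 (edgeR adjusted p = 0.57). Uqcr11, the smallest subunit of complex III, stood at 105, 364 and 300 CPM and then 71.8, 163 and 74.9 CPM (-1.59 ± 0.60). The ages overlapped in both genes, since 3-month replicate 1 lay as low as the 18-month libraries.

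Atp5k, subunit e of ATP synthase, was the nuclear-encoded member whose ages separated most often. In rods it stood at 260, 432 and 360 CPM at 3 months and at 125, 241 and 150 CPM at 18 months, with no overlap (-1.32 ± 0.44, edgeR adjusted p = 0.57). Its ages did not overlap in 6 of the 8 classes, always with 18 months lower. Among the mitochondrial genes, mt-Cytb was lower at 18 months without overlap in 7 of 8 classes and mt-Co2 in 6. In cones mt-Cytb stood at 2409, 3125 and 2582 CPM and then 1137, 1372 and 1559 CPM, and in rods its ages overlapped (2331, 3986 and 2834 CPM, then 1344, 2000 and 2538 CPM). The 8 classes come from the same 6 libraries, so these are not separate observations.

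Over all members, ages without overlap and lower at 18 months were found for 4 of 94 members in rods (3.67% of all genes), 9 of 91 in cones (2.4%), 2 of 85 in rod bipolar cells (2.56%), 2 of 90 in cone bipolar cells (3.07%), 9 of 94 in amacrine cells (2.88%), 3 of 86 in horizontal cells (2.28%), 6 of 95 in ganglion cells (2.38%) and 6 of 89 in Müller glia (3.14%). In rods and both bipolar classes these shares were near those of all genes. The other direction was seen for Cox7b2 alone, in amacrine and ganglion cells. It stood at 5.53, 5.46 and 3.77 CPM and then 5.93, 8.09 and 7.21 CPM in amacrine cells, and 3.54, 3.94 and 3.74 CPM and then 4.48, 5.26 and 5.01 CPM in ganglion cells. Ages without overlap and higher at 18 months made up 4.8% and 4.58% of all genes there, and between 2.79% and 9.56% in the classes where no member was higher without overlap (9.14% in rods, 5.42% in cones, 2.79% in rod bipolar cells, 3.59% in cone bipolar cells, 9.56% in horizontal cells and 6.23% in Müller glia). Neither Cox7b2 difference was called (0.50 ± 0.38 and 0.33 ± 0.33).

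The ages did not overlap in the summed mitochondrial level in cones and amacrine cells and overlapped in the other 6 classes. In cones it took 3.28%, 2.38% and 1.71% of UMIs at 3 months and 1.58%, 0.960% and 1.28% at 18 months, and in amacrine cells 2.43%, 1.43% and 1.61% and then 1.29%, 0.549% and 1.04%. In rods, by contrast, 3-month replicate 3 (1.92%) lay below 18-month replicate 3 (2.01%). In the makeup of the mitochondrial UMIs, the ages did not overlap for mt-Nd6 in cones, rod bipolar and cone bipolar cells. The same held for mt-Nd5 and mt-Co1 in rod bipolar cells and mt-Co1 in Müller glia. All were higher shares at 18 months. Shares of the 13 genes were compared in each of the 8 classes, and the ages overlapped in every other case. These shares were not tested. In cones mt-Nd6 made up 0.624 ± 0.174% at 3 months and 0.981 ± 0.233% at 18 months. The share of barcodes over the 5% mitochondrial limit was also higher at 3 months (above), and its part in these values was not tested. Rod marker UMIs per nucleus were lower at 18 months without overlap in each of the 8 classes, and their part was not tested either.

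The rod result depended on how the libraries were modelled. A block for the replicate number, which the labels do not say pairs libraries, also called rod members, as given with the processing alternatives below. With a term for the Cell Ranger release, edgeR called 64 members lower at 18 months (6.67% of all genes were called lower), and with only the 4 libraries of release 7.2.0, chosen after seeing the data, 70 (9.17%), at medians of -0.99 and -1.08 for the nuclear-encoded members. In the 2 libraries of release 7.1.0 the nuclear-encoded members took 1.09% of rod UMIs at 3 months and 0.748% at 18 months, with 1 library per age and no test. The count with the release term fell to 0 without 3-month replicate 2, 3-month replicate 3 or 18-month replicate 2, was 39 without 18-month replicate 3, and was 73 and 75 without 3-month and 18-month replicate 1. It thus rests on single libraries. With age alone in the model, where no member was called either, all 83 ribosomal protein genes tested in rods were lower on average. Their median was -1.26, and no gene of that list was called. The list was not examined with the release term.

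Whether rods differed from the other classes in their age difference was tested as an interaction in a single edgeR fit over 10320 genes. For 28 of 93 members, all nuclear-encoded, the difference was called lower in rods than in the mean of the other classes (5.37% of all genes), 12 in complex I, 1 in complex II, 3 in complex III, 3 in complex IV and 9 in complex V. The median was -0.70 over the nuclear-encoded members, 79 of 80 of them below 0, and 0.02 over the mitochondrially encoded ones, none of which was called. Atp5o, which joins the stalk of ATP synthase to its head, had an interaction of -1.15 ± 0.25 and Cyc1 one of -1.08 ± 0.23 (edgeR adjusted p = 0.0119 for both). Ndufs7, an iron-sulfur subunit of complex I, had -1.09 ± 0.26 (0.016).

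Cyc1 shows what lies behind these values. In rods it stood at 73.9, 199 and 205 CPM at 3 months and 60.8, 125 and 103 CPM at 18 months, and in ganglion cells at 51.0, 50.4 and 65.0 CPM and then 43.0, 42.1 and 51.1 CPM. The rod libraries spread more than the ganglion libraries at both ages. The fit takes a single spread per gene, pooled over all classes and libraries, so its p-values do not measure the spread of rods alone. The count of 28 was not stable under alternatives chosen after seeing the data. It was 0 without 3-month replicate 2, without 3-month replicate 3 or without 18-month replicate 1, and 0 with finer clustering. No gene at all was called lower in those fits, where the nuclear-encoded medians were -0.48, -0.64, -0.65 and -0.47. The count was 71 without 3-month replicate 1, 3 with library size in place of TMM and 17 with no filter on low counts. Over all genes, 1464 of 10186, 93 of 10320 and 435 of 26256 were called lower in these fits. The ribosomal protein genes gave the same pattern as the members in the main fit, with 82 of 82 below 0, 33 called and a median of -0.73. In the other 7 classes neither edgeR nor DESeq2 called any member's age difference against the rest, with 0 to 15 members at an unadjusted p under 0.05 by edgeR. Of all genes, 0.00969% were called in amacrine cells, 0.3% in horizontal cells and 0.0% in the other 5.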

How the data were processed

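Single-nucleus libraries of mouse retina were read from the deposited matrices of raw counts, which hold whole UMI counts per gene and barcode. Per the file headers the authors made them with Cell Ranger 7.1.0 (replicate 1 of both ages) and 7.2.0 (the others), and per the submitters' processing notes with mm10 and Seurat; the aligner's other settings are not given in the sources used here. Barcodes had at least 500 UMIs as deposited.

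Barcodes with under 300 genes and the highest-scoring doublets of each library (Scrublet scores at 0.8% per 1000 barcodes, 5939 in all, since Scrublet's own threshold called 8) were removed. The rest were clustered over all libraries with scanpy 1.11.5 (leidenalg 0.10.2 at resolution 1, on 15 neighbours in 30 principal components of the 2000 most variable genes). Clusters were named where at least 3 markers and 30% of a class's list were higher there, under rules for mixed clusters that were set after looking at the clusters. Nuclei over 5% mitochondrial UMIs were then left out. Counts were summed per class and library over at least 20 nuclei, and CPM are UMIs per 1000000 of that sum.

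Ages (18 minus 3 months) were compared in each class by edgeR 4.0.16's quasi-likelihood test with TMM factors and its filter on low counts, and classes and the interaction of class with age in a fit over 8 classes and 6 libraries, each library a block. P-values were adjusted over all genes tested by Benjamini-Hochberg, with calls at 0.05. DESeq2 1.42.0, no TMM, no filter, mitochondrial limits of 2% or none, Leiden resolution 2, a release term, a replicate block and leaving out libraries were alternatives. The release term with a library left out, release 7.2.0 only, one age only, and all alternatives for the interaction and isoform shares were chosen after seeing the data. The scripts were tested on simulated data.

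The members and gene lists were chosen with earlier results of these data known. Genes were named by a rule: the 3 highest nuclear-encoded members per complex, all mitochondrial members and isoform pairs, the 3 largest age differences per class, and the 5 largest and smallest differences of rods, cones and Müller glia. Genes of the other lists were chosen after their values were seen. So were Atp5k, Atp5o, Atp5f1, Ndufv1, Ndufb3, Ndufb10 and Ndufs3 beyond that rule, while Ndufa13 is named for its overlap with another gene.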

Additional observations from a re-analysis of the deposited data

Results flagged for a closer look

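The age difference of rods, taken against the mean of the other classes, was called lower for 28 members by the test of the difference itself. The p-values of that test rest on a spread pooled over all classes. The members with the lowest adjusted p by edgeR were Cyc1 (log2 -1.08), Atp5o (-1.15) and Ndufs7 (-1.09). They were followed by Ndufv1, the NADH-binding subunit of complex I (-0.98), and Atp5f1, a stalk subunit of ATP synthase (-0.85). Without any of 3 single libraries this count was 0, and no gene at all was called. The libraries were 3-month replicate 2, 3-month replicate 3 and 18-month replicate 1. Rod nuclei of those libraries came mainly from different clusters, and the part of that in the result was not tested.

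Ndufa4l2 was counted in mural nuclei, a small class that no comparison used, at 10.2% of Ndufa4 and Ndufa4l2 UMIs pooled over the libraries. Its share there was 0 in 3-month replicate 1, with 14 mural nuclei, and 20.6% in 18-month replicate 2, with 89.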

How the results depend on the processing

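Counts of members called between ages were 0 in every class with age alone in the model. A block for the replicate number gave 61 in rods (576 of 11112 genes were called lower), 1 in horizontal cells and 5 in Müller glia and called none in the other classes. Same-numbered libraries of the 2 ages correlated above 0.1 for all 3 numbers only in amacrine cells (0.644, 0.349 and 0.125) and ganglion cells (0.631, 0.355 and 0.200), and in rods the values were 0.559, 0.497 and 0.0868, with 4 of 6 libraries closest to their own number. The numbers were therefore not taken to pair libraries. A term for the Cell Ranger release gave 64 in rods, 2 in amacrine cells, 1 in horizontal cells and 2 in Müller glia. With that term and a library left out in turn, the counts ran from 0 to 75 in rods (73 without 3-month replicate 1 and 39 without 18-month replicate 3), 0 to 28 in cones, 0 to 1 in rod bipolar cells, 0 to 22 in amacrine cells, 0 to 9 in horizontal cells, 0 to 51 in ganglion cells and 0 to 23 in Müller glia, and were 0 in cone bipolar cells. Release 7.2.0 only gave 70 in rods, 3 in amacrine cells and 2 in horizontal cells. In horizontal cells no filter on low counts gave 5, and leaving out a library 0 to 2. For classes other than rods, and for fits with a library left out, the share of all genes called is not set beside these counts. Such counts do not show whether members stood out from all genes.

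The count of members higher in cones was 79 without TMM, 14 without the filter, 6 with the 18-month libraries only, and 16 to 36 with a library left out. For cones too, the share of all genes called under these alternatives is not set beside the counts. The count for the rod interaction, 28, was 3 without TMM, 17 without the filter, 0 at Leiden resolution 2, and 0 to 71 with a library left out. In the interaction fits that gave 0, no gene at all was called lower. The mitochondrial percentage of rods was 4.73 at 3 months and 2.18 at 18 months with no limit, and 1.41 and 1.14 with a limit of 2%. The cause of these shifts was not tested. Among 1392 values of single genes and smaller results under the alternatives, 1264 were counted as the same, 29 lost and 64 gained a call, 35 moved and 0 reversed. Same meant an unchanged call for a single gene, a shift under the SE for a median and under the SD between libraries for a percentage. An uncalled gene could change sign within its SE and count as the same. Reversal was counted only for called genes and for medians larger than their SE. Depth limits the scarce isoforms most, since Cox4i2 in Müller glia rests on 119 UMIs and Cox6b2 on 61.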

Other observations

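Polg, the catalytic subunit of the polymerase that copies mitochondrial DNA, is no member but stood higher in Müller glia than in the mean of the other classes, with a log2 difference of 2.13 ± 0.17 (edgeR adjusted p = 5.47e-16) and 78.7 CPM against means of 10.5 to 24.4 CPM in the other 7 classes. It overlaps Fanci on the other strand, which averaged 2.01 CPM in Müller glia. Both were chosen after their values were seen.

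Nuclei that stayed unnamed gave 1.28 ± 0.697% of their UMIs to the nuclear-encoded members and 1.05 ± 0.261% to the mitochondrial ones over the 6 libraries.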
